A study of Mus musculus with 16 samples.

Results

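The 37 genes described here encode the machinery that copies DNA and divides the cell, and they were found by gene symbol in the table of FPKM values (fragments per kilobase of transcript, scaled to the mapped fragments of the library), where each had a single row among 38371 genes. They comprise the proliferation markers Mki67 and Top2a, 7 cyclins, cyclin-dependent kinases (CDKs) and CDK subunits, 7 mitotic kinases, checkpoint proteins and chromosomal passengers, 3 genes of mitotic exit, 3 of the centromere, 6 of the spindle and of cytokinesis, 5 of the replication fork and 4 of nucleotide synthesis. The 16 libraries came from mice aged 12 weeks. HuR-FKO animals carried AdipoQ-Cre and 2 floxed alleles of HuR, the RNA-binding protein encoded by Elavl1, and their littermate controls (Ctrl) carried the same floxed alleles without Cre, on a line backcrossed to C57BL/6. Brown fat (BAT) gave 2 libraries labelled HuR-FKO and 2 Ctrl libraries, epididymal white fat (eWAT) gave 3 and 3, and inguinal white fat (iWAT) gave 3 and 3. Each library was made from RNA pooled from 3 animals, so that the spread between libraries is a spread between pools. The adiponectin promoter drives Cre in mature fat cells, and other cells of the tissue keep the floxed gene.

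A cell that divides passes from G1 into S phase, when its DNA is copied, and through G2 into mitosis. Cyclins and CDKs drive these steps in order, the anaphase-promoting complex (APC/C) ends mitosis by marking cyclins for destruction, and most of the genes are transcribed in waves, with replication genes early and mitotic genes late. Mature fat cells do not divide, and in fat tissue cycling cells are found among progenitors, endothelial cells and leukocytes.

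The Elavl1 level did not separate the genotypes in these libraries. It had 8.98 and 8.17 FPKM in BAT libraries labelled HuR-FKO, against 8.34 and 7.36 FPKM in BAT Ctrl. In eWAT it had 13.9, 15.4 and 13.3 FPKM in libraries labelled HuR-FKO, against 13.6, 13.8 and 12.2 FPKM in Ctrl, and in iWAT 16.5, 15.3 and 13.9 FPKM in libraries labelled HuR-FKO, against 13.2, 15.8 and 12.4 FPKM in Ctrl. The FPKM values count the whole gene, not the floxed exons, and the genotype is taken from the labels throughout. The depth, estimated from the steps between low FPKM values, was 16.7 to 17.7 M fragments in BAT, 9.30 to 13.7 M in eWAT and 11.7 to 15.4 M in iWAT. In a transcript of 2000 bases, 3 fragments correspond to 0.094 to 0.179 FPKM, and the lowest of the 37 depot medians in BAT was 0.0413 FPKM. Brown fat markers summed to 6959 to 9934 FPKM in BAT, 56.6 to 114 FPKM in eWAT and 592 to 2001 FPKM in iWAT.

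Most of the late genes share short promoter words, and a few promoters are printed here to show these words in place. RefSeq promoters (GRCm38.p6, 250 bases before to 50 bases after the annotated start) were matched for 32 of the 37 genes, and Aurkb, Ccna2, Ccne2, Kif20a and Tpx2 are named only. The cell cycle homology region (CHR, searched as TTTGAA or TTCGAA on both strands) was present in 19 of the 32 promoters, against 19.4% of 27025 promoters. It was present in 18 of the 23 promoters of mitotic, cyclin and marker genes, and in 1 of the 9 promoters of replication and nucleotide synthesis genes, that of Mcm2. A CCAAT box (CCAAT on both strands) was present in 28 of the 32, against 37.9% of all promoters. A CHR and a CCAAT box together were present in 19 of the 32, against 7.70% of all promoters. Each of the 19 promoters with a CHR thus held a CCAAT box, and of the 5254 promoters with a CHR among all genes 2082 did. The E2F words TTTCCCGC, TTTGGCGC, TTTCGCGC and TTTGCCGC, on both strands, were present in 4 of the 32 promoters (Mcm3, Mcm5, Mcm6 and Cdk1), against 2.32% of all promoters. TTCGAA reads the same on both strands, and E2F words on opposite strands can overlap, as they do in Mcm5 and Mcm6. A match describes the letters and does not show that a factor binds. The 160 bases before the start are given 5′ to 3′ on the strand of the gene for 5 genes with a CHR and for 2 with an E2F word, with all the searched words in capitals.
Cdk1 (chr10:69352913-69353072, minus strand): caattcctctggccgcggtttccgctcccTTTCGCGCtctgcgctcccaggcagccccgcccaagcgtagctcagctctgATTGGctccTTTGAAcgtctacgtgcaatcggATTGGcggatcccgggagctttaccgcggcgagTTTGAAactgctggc
Cdc20 (chr4:118437344-118437503, minus strand): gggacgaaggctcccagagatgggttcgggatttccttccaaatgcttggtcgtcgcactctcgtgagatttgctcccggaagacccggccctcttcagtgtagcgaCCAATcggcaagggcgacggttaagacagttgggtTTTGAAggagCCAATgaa
Cks1b (chr3:89418292-89418451, minus strand): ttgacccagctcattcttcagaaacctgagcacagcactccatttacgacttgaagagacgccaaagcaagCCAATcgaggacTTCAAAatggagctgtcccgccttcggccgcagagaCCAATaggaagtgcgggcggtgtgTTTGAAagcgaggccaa
Top2a (chr11:99024190-99024349, minus strand): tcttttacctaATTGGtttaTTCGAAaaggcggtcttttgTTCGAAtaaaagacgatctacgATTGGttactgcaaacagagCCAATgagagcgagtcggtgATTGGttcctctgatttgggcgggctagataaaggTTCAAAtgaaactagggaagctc
Mki67 (chr7:135716380-135716539, minus strand): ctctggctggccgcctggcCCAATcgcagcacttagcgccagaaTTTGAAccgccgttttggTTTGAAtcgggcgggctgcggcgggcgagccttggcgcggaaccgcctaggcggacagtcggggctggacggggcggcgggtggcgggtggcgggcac
Mcm5 (chr8:75109349-75109508, plus strand): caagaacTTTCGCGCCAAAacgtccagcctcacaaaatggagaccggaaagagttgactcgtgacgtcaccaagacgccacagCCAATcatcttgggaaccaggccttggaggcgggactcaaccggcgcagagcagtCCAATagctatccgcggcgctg
Mcm6 (chr1:128359706-128359865, minus strand): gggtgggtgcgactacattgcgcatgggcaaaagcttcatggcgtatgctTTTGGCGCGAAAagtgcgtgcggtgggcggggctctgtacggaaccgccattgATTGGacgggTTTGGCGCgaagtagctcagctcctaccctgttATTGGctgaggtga

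The levels of the 37 genes differed by depot first. By the mean over a depot's libraries, 33 of the 37 genes ran BAT, eWAT, iWAT, low to high, and the exceptions were Cks1b, Cks2, Cenpa and Rrm1. The share of all genes in this order was not taken. Most genes shared the step from BAT to eWAT, as the 63.2% given below shows. The median gene had 0.652 FPKM in BAT, 1.25 FPKM in eWAT and 3.08 FPKM in iWAT, each taken over the genes' depot medians. A depot median above 1 FPKM was reached by 8 genes in BAT, 23 in eWAT and 34 in iWAT. Of all protein-coding genes, libraries had 10442 to 10785 above 1 FPKM in BAT, 11949 to 12304 in eWAT and 12404 to 12532 in iWAT. Only Cks1b, Cks2, Cenpa, Mcm6, Pcna, Rrm1 and Tyms were above 1 FPKM in all 16 libraries, and Bub1 and Aurkb were the genes listed at 0 in any library, in BAT. The genes' FPKM values summed to 56.6 and 58.4 in BAT libraries labelled HuR-FKO and 51.3 and 51.3 in BAT Ctrl, to 127, 135 and 114 in eWAT HuR-FKO and 122, 104 and 112 in eWAT Ctrl, and to 283, 232 and 158 in iWAT HuR-FKO and 172, 200 and 157 in iWAT Ctrl. Every iWAT library lay above every eWAT library for 19 of the 37 genes, every iWAT library above every BAT library for 32, and every eWAT library above every BAT library for 21, where 13.2%, 63.4% and 63.2% of protein-coding genes above 1 FPKM in some library did so. The lowest iWAT sum lay above the highest eWAT sum, and the lowest eWAT sum above the highest BAT sum.

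**Figure D1:**
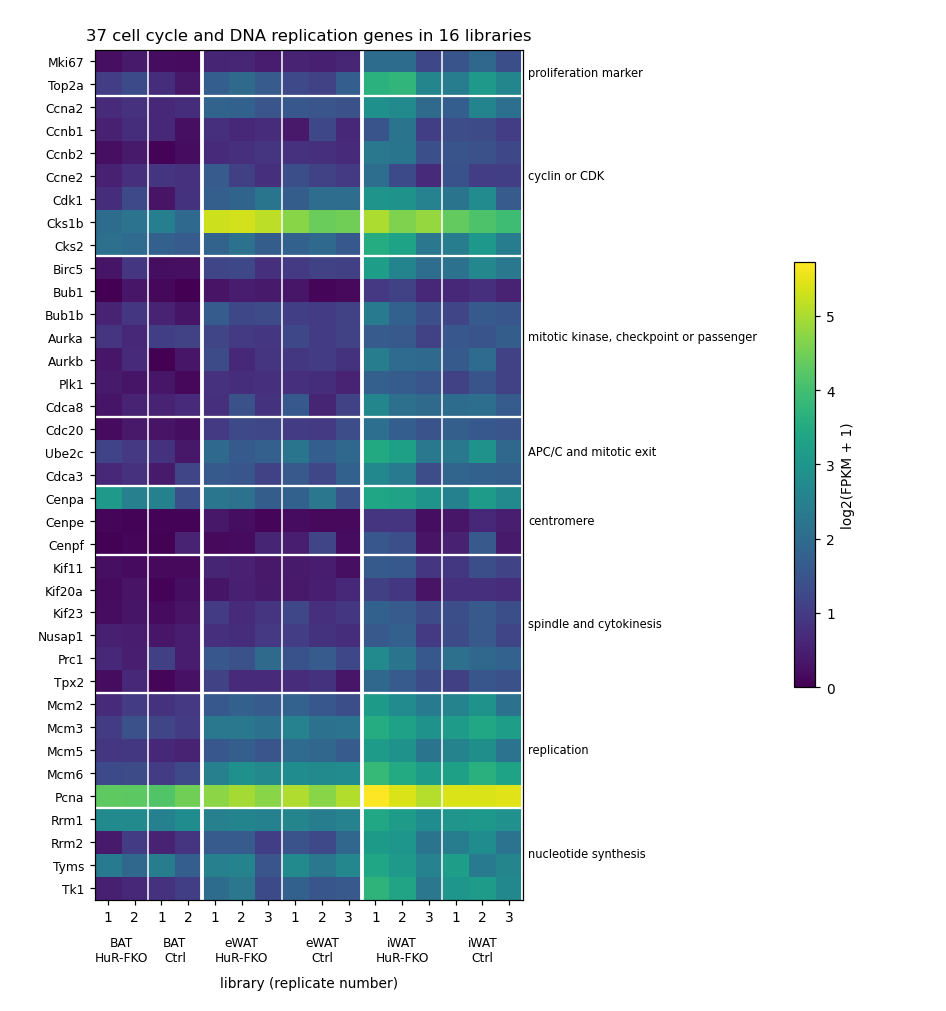
Heat map of log2(FPKM + 1) for the 37 genes (rows, ordered by role) in the 16 libraries (columns, with the replicate number below each). The iWAT columns are the brightest for most rows, Cks1b is brightest in the eWAT columns labelled HuR-FKO, and Pcna, Rrm1, Cenpa, Cks1b, Cks2 and Tyms are among the brighter rows in BAT.

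Both proliferation markers ran BAT, eWAT, iWAT, low to high, by mean. Mki67 (chr7:135689784-135716361 in GRCm38, minus strand) encodes the Ki-67 protein that coats mitotic chromosomes and is present in all cycling phases. Mki67 had 0.173 and 0.332 FPKM in BAT HuR-FKO and 0.136 and 0.123 FPKM in BAT Ctrl, 0.512, 0.527 and 0.364 FPKM in eWAT HuR-FKO and 0.472, 0.419 and 0.534 FPKM in eWAT Ctrl, and 3.06, 3.04 and 1.38 FPKM in iWAT HuR-FKO and 1.82, 2.85 and 1.6 FPKM in iWAT Ctrl. Top2a (chr11:98992943-99024189 in GRCm38, minus strand) encodes the topoisomerase that untangles newly copied DNA. Top2a had 1.04 and 1.43 FPKM in BAT HuR-FKO and 0.672 and 0.299 FPKM in BAT Ctrl, 2.27, 2.93 and 2.12 FPKM in eWAT HuR-FKO and 1.41, 1.18 and 2.26 FPKM in eWAT Ctrl, and 11.6, 12.7 and 5.05 FPKM in iWAT HuR-FKO and 4.38, 7.58 and 5.21 FPKM in iWAT Ctrl. For both genes every iWAT library lay above every eWAT library. For Mki67 the eWAT libraries also lay above all BAT libraries, whereas the eWAT and BAT ranges of Top2a overlapped.

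Cyclins and CDKs gave the same depot order with more overlap. Cyclin A2 (Ccna2) acts in S phase and at entry into mitosis. Ccna2 had 0.62 and 0.751 FPKM in BAT HuR-FKO and 0.574 and 0.689 FPKM in BAT Ctrl, 2.52, 2.45 and 1.83 FPKM in eWAT HuR-FKO and 1.96, 1.83 and 1.67 FPKM in eWAT Ctrl, and 6.28, 5.7 and 2.92 FPKM in iWAT HuR-FKO and 2.25, 4.95 and 3.28 FPKM in iWAT Ctrl. Cyclins B1 and B2 partner Cdk1 in mitosis. Ccnb1 had 0.433 and 0.692 FPKM in BAT HuR-FKO and 0.573 and 0.181 FPKM in BAT Ctrl, 0.695, 0.55 and 0.668 FPKM in eWAT HuR-FKO and 0.314, 1.36 and 0.58 FPKM in eWAT Ctrl, and 1.78, 3.62 and 1.09 FPKM in iWAT HuR-FKO and 1.56, 1.5 and 1.07 FPKM in iWAT Ctrl. Ccnb2 had 0.184 and 0.339 FPKM in BAT HuR-FKO and 0.0442 and 0.134 FPKM in BAT Ctrl, 0.618, 0.696 and 0.816 FPKM in eWAT HuR-FKO and 0.75, 0.729 and 0.624 FPKM in eWAT Ctrl, and 3.86, 3.64 and 1.64 FPKM in iWAT HuR-FKO and 1.81, 1.68 and 1.36 FPKM in iWAT Ctrl. The iWAT and eWAT ranges did not overlap for Ccnb2, and for Ccnb1 they overlapped because of 1.36 FPKM in 1 eWAT Ctrl library. Cdk1 had 0.672 and 1.42 FPKM in BAT HuR-FKO and 0.226 and 0.793 FPKM in BAT Ctrl, 2.3, 2.61 and 3.71 FPKM in eWAT HuR-FKO and 2.21, 3.12 and 3.12 FPKM in eWAT Ctrl, and 6.75, 6.71 and 4.77 FPKM in iWAT HuR-FKO and 3.57, 5.8 and 2.13 FPKM in iWAT Ctrl. Cdk1, the kinase that starts mitosis, was lower in iWAT Ctrl replicate 3 than in any eWAT library. Cyclin E2 (Ccne2), which acts at entry into S phase, had a median of 0.753 FPKM in BAT (0.429 to 0.846), 1.14 FPKM in eWAT (0.715 to 2.13) and 1.25 FPKM in iWAT (0.64 to 3.21). These ranges overlapped in all depots.

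Cks1b and Cks2, the small subunits that bind CDKs, differed from each other. Cks2 had 3.34 and 3.02 FPKM in BAT HuR-FKO and 2.36 and 2.1 FPKM in BAT Ctrl, 2.54, 3.45 and 2.22 FPKM in eWAT HuR-FKO and 2.45, 2.85 and 1.99 FPKM in eWAT Ctrl, and 10.7, 9.03 and 3.84 FPKM in iWAT HuR-FKO and 4.28, 7.35 and 4.39 FPKM in iWAT Ctrl. Cks2 was highest in iWAT, and all 4 of its BAT values lay within the eWAT range. Cks1b had 3.09 and 3.54 FPKM in BAT HuR-FKO and 4.51 and 2.9 FPKM in BAT Ctrl, 37.8, 39.1 and 34.8 FPKM in eWAT HuR-FKO and 25.3, 20.5 and 21.4 FPKM in eWAT Ctrl, and 31.6, 23.7 and 27.1 FPKM in iWAT HuR-FKO and 19.5, 16.5 and 14.5 FPKM in iWAT Ctrl. Cks1b, whose protein also serves the SCF ubiquitin ligase that removes the CDK inhibitor p27, was higher in eWAT than in iWAT at each genotype by mean, and its BAT values were lower than those of any white fat library.

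**Figure D2:**
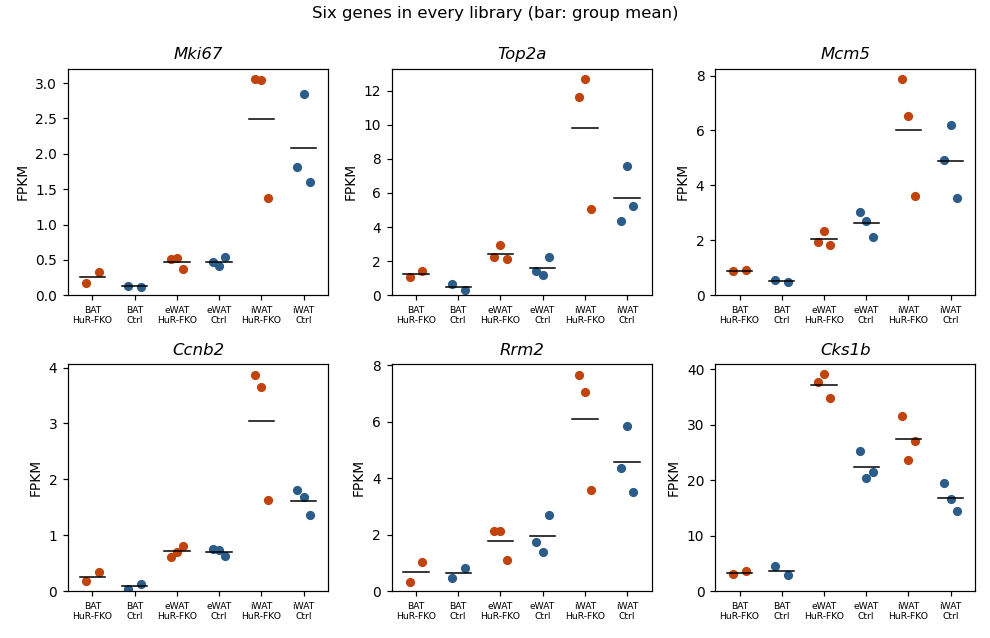
FPKM of 6 genes in every library (points), with the group mean (bar), HuR-FKO in orange and Ctrl in blue. Mki67, Top2a, Mcm5, Ccnb2 and Rrm2 are highest in iWAT and scatter there by library, and Cks1b is highest in the eWAT libraries labelled HuR-FKO (34.8 to 39.1 FPKM).

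Mitotic kinases and checkpoint genes were highest in iWAT. Plk1 had 0.337 and 0.253 FPKM in BAT HuR-FKO and 0.265 and 0.0887 FPKM in BAT Ctrl, 0.774, 0.677 and 0.714 FPKM in eWAT HuR-FKO and 0.719, 0.678 and 0.471 FPKM in eWAT Ctrl, and 2.37, 2.18 and 1.85 FPKM in iWAT HuR-FKO and 1.17, 1.79 and 1.2 FPKM in iWAT Ctrl. Plk1 (polo-like kinase) showed no overlap between eWAT and iWAT. Bub1b had 0.493 and 0.864 FPKM in BAT HuR-FKO and 0.481 and 0.259 FPKM in BAT Ctrl, 2.15, 1.37 and 1.46 FPKM in eWAT HuR-FKO and 1.1, 1.0 and 1.14 FPKM in eWAT Ctrl, and 4.1, 2.45 and 1.63 FPKM in iWAT HuR-FKO and 1.3, 2.07 and 1.9 FPKM in iWAT Ctrl. Bub1b (BubR1) is part of the checkpoint that holds anaphase until all chromosomes are attached. The survivin gene Birc5, a passenger that guides Aurora B, had a median of 0.215 FPKM in BAT (0.162 to 0.879), 1.15 FPKM in eWAT (0.703 to 1.37) and 4.47 FPKM in iWAT (3.12 to 8.13). Bub1, the checkpoint kinase, had a median of 0.0456 FPKM in BAT (0 to 0.269), 0.256 FPKM in eWAT (0.0705 to 0.347) and 0.65 FPKM in iWAT (0.465 to 1.19). For both of these genes the eWAT and iWAT ranges were apart. Aurka (Aurora A, at the spindle poles) had a median of 0.958 FPKM in BAT (0.545 to 1.15), 1.1 FPKM in eWAT (0.861 to 1.38) and 1.98 FPKM in iWAT (1.2 to 2.2). Aurkb (Aurora B, the passenger kinase) had a median of 0.276 FPKM in BAT (0 to 0.625), 0.855 FPKM in eWAT (0.572 to 1.48) and 2.95 FPKM in iWAT (1.14 to 4.27). Cdca8 (borealin, a passenger subunit) had a median of 0.462 FPKM in BAT (0.259 to 0.63), 0.968 FPKM in eWAT (0.511 to 2.0) and 3.13 FPKM in iWAT (2.19 to 5.18). Of these 3 genes, Cdca8 alone had no overlap between the white depots.

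For mitotic exit, Cdc20, the activator of the APC/C, had a median of 0.189 FPKM in BAT (0.116 to 0.321), 1.17 FPKM in eWAT (0.969 to 1.54) and 2.14 FPKM in iWAT (1.74 to 3.26). Its eWAT and iWAT ranges did not overlap. Ube2c had 1.24 and 0.919 FPKM in BAT HuR-FKO and 0.793 and 0.29 FPKM in BAT Ctrl, 2.85, 2.06 and 2.37 FPKM in eWAT HuR-FKO and 3.69, 2.25 and 2.81 FPKM in eWAT Ctrl, and 10.1, 8.56 and 3.87 FPKM in iWAT HuR-FKO and 3.92, 6.65 and 2.79 FPKM in iWAT Ctrl. Ube2c is the ubiquitin-conjugating enzyme that works with the APC/C. It overlaps the troponin gene Tnnc2 on the other strand, and Tnnc2 ran from 191 to 771 FPKM in BAT, 0.412 to 3.90 FPKM in eWAT and 2.53 to 473 FPKM in iWAT. The iWAT library with the least Tnnc2 (2.53 FPKM) had the most Ube2c (10.1 FPKM), and the part of the overlap was not tested. Cdca3, a trigger of mitotic entry, had a median of 0.652 FPKM in BAT (0.332 to 1.28), 1.95 FPKM in eWAT (1.15 to 2.46) and 2.54 FPKM in iWAT (1.55 to 5.41). Of the centromere genes, Cenpa encodes the histone that marks centromeres. Cenpa had 7.57 and 4.61 FPKM in BAT HuR-FKO and 4.71 and 1.63 FPKM in BAT Ctrl, 3.78, 3.47 and 2.24 FPKM in eWAT HuR-FKO and 2.45, 3.83 and 1.77 FPKM in eWAT Ctrl, and 9.48, 8.88 and 6.84 FPKM in iWAT HuR-FKO and 4.68, 7.98 and 5.66 FPKM in iWAT Ctrl. The BAT range of Cenpa covered the whole eWAT range. Cenpe, a kinetochore motor, stayed below 1 FPKM in every library, and Cenpf, a kinetochore protein, reached at most 2.03 FPKM.

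Spindle genes were sparse in BAT and eWAT. Kif11, the motor that pushes the spindle poles apart, had a median of 0.118 FPKM in BAT (0.114 to 0.185), 0.345 FPKM in eWAT (0.179 to 0.511) and 1.43 FPKM in iWAT (0.872 to 2.07). Kif23, a motor of cytokinesis, had a median of 0.185 FPKM in BAT (0.127 to 0.243), 0.845 FPKM in eWAT (0.605 to 1.32) and 1.81 FPKM in iWAT (1.51 to 2.43). For both, every iWAT library was above every eWAT library. Nusap1, a microtubule bundler, had a median of 0.373 FPKM in BAT (0.263 to 0.407), 0.746 FPKM in eWAT (0.683 to 1.06) and 1.76 FPKM in iWAT (0.971 to 2.38). Prc1, which bundles the midzone, had a median of 0.476 FPKM in BAT (0.361 to 1.13), 1.81 FPKM in eWAT (1.35 to 2.96) and 3.08 FPKM in iWAT (2.0 to 5.62). Tpx2, the activator of Aurora A, had a median of 0.182 FPKM in BAT (0.074 to 0.573), 0.633 FPKM in eWAT (0.266 to 1.15) and 1.78 FPKM in iWAT (1.12 to 2.77). For these 3 genes the eWAT and iWAT ranges overlapped. Kif20a, a further cytokinesis motor, had a median of 0.142 FPKM in BAT (0.0349 to 0.233), 0.365 FPKM in eWAT (0.246 to 0.562) and 0.731 FPKM in iWAT (0.238 to 1.12).

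Replication genes separated the white depots completely. The MCM proteins form the helicase that opens the DNA. Mcm5 had 0.873 and 0.904 FPKM in BAT HuR-FKO and 0.565 and 0.491 FPKM in BAT Ctrl, 1.93, 2.35 and 1.84 FPKM in eWAT HuR-FKO and 3.03, 2.69 and 2.12 FPKM in eWAT Ctrl, and 7.89, 6.53 and 3.62 FPKM in iWAT HuR-FKO and 4.91, 6.21 and 3.54 FPKM in iWAT Ctrl. Mcm2 had a median of 0.861 FPKM in BAT (0.598 to 1.01), 2.06 FPKM in eWAT (1.59 to 2.5) and 5.31 FPKM in iWAT (3.46 to 7.72). Mcm3 had a median of 1.16 FPKM in BAT (0.986 to 1.67), 3.69 FPKM in eWAT (3.41 to 4.83) and 8.41 FPKM in iWAT (6.62 to 10.7). Mcm6 had a median of 1.43 FPKM in BAT (1.0 to 1.48), 5.72 FPKM in eWAT (4.63 to 6.28) and 9.63 FPKM in iWAT (8.03 to 13.3). In each of the 4 MCM genes the lowest iWAT library exceeded the highest eWAT library. Pcna had 18.7 and 18.6 FPKM in BAT HuR-FKO and 17.0 and 21.4 FPKM in BAT Ctrl, 25.6, 29.9 and 25.2 FPKM in eWAT HuR-FKO and 31.7, 25.1 and 32.7 FPKM in eWAT Ctrl, and 51.9, 41.5 and 33.1 FPKM in iWAT HuR-FKO and 41.1, 41.1 and 42.4 FPKM in iWAT Ctrl. Pcna, the sliding clamp of the replication polymerases, was the most abundant of the 37 genes in iWAT and in BAT. Its processed pseudogene Pcna-ps2 was listed at 1.22 to 1.47 FPKM in BAT, 5.34 to 8.47 FPKM in eWAT and 8.47 to 13.9 FPKM in iWAT, so that reads of the gene and its copy may be shared. Of the nucleotide synthesis genes, Rrm2 encodes the subunit of ribonucleotide reductase that is made in S phase. Rrm2 had 0.339 and 1.02 FPKM in BAT HuR-FKO and 0.473 and 0.832 FPKM in BAT Ctrl, 2.13, 2.13 and 1.1 FPKM in eWAT HuR-FKO and 1.75, 1.4 and 2.71 FPKM in eWAT Ctrl, and 7.67, 7.07 and 3.57 FPKM in iWAT HuR-FKO and 4.35, 5.86 and 3.53 FPKM in iWAT Ctrl. Rrm1, the large subunit, which does not follow S phase so closely, had a median of 5.61 FPKM in BAT (4.69 to 5.93), 4.76 FPKM in eWAT (4.31 to 5.11) and 7.13 FPKM in iWAT (5.85 to 9.8). Its BAT values were thus as high as its eWAT values, whereas those of Rrm2 lay below all its eWAT values. Tyms had 4.1 and 2.74 FPKM in BAT HuR-FKO and 4.32 and 2.28 FPKM in BAT Ctrl, 4.63, 4.89 and 1.84 FPKM in eWAT HuR-FKO and 5.61, 3.91 and 5.24 FPKM in eWAT Ctrl, and 9.27, 7.39 and 4.82 FPKM in iWAT HuR-FKO and 8.08, 4.03 and 5.1 FPKM in iWAT Ctrl. Tk1 had 0.425 and 0.563 FPKM in BAT HuR-FKO and 0.753 and 1.1 FPKM in BAT Ctrl, 3.07, 3.83 and 1.44 FPKM in eWAT HuR-FKO and 2.43, 1.9 and 2.02 FPKM in eWAT Ctrl, and 12.1, 9.14 and 3.81 FPKM in iWAT HuR-FKO and 7.02, 7.88 and 5.36 FPKM in iWAT Ctrl. Thymidylate synthase (Tyms) overlapped between all depots, and thymidine kinase 1 (Tk1) overlapped between the white depots only through iWAT HuR-FKO replicate 3.

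The depots were compared within each genotype with limma on log2(FPKM + 1), over the protein-coding genes that averaged over 1 FPKM in any group of the fit, at an adjusted p under 0.05. A log2 difference on this scale understates the fold of a gene with few FPKM. In the libraries labelled HuR-FKO, 26 of the 34 genes tested were lower in eWAT than in iWAT and 1 was higher, where 14.9% of all 13017 genes tested were lower and 14.9% higher. In Ctrl, 23 of the 33 tested were lower in eWAT and none was higher, where 15.9% of all 13054 genes tested were lower and 12.2% higher. At an unadjusted p under 0.05, 26 of the 33 were lower in Ctrl and 1 higher, where 21.7% of all genes were lower and 18.4% higher. The median difference over all 37 genes, eWAT minus iWAT, was -0.82 in HuR-FKO and -0.51 in Ctrl, against a median of 0.01 in HuR-FKO and -0.02 in Ctrl over all genes tested. Of the 37 differences, 36 were negative at each genotype, and the share of all genes with a negative difference is not given beside this count. The filter was passed through iWAT alone by 10 genes in HuR-FKO and by 9 in Ctrl. Of the 24 genes above 1 FPKM in both depots, 17 were lower in HuR-FKO and 16 in Ctrl, where 12.4% and 12.8% of all such genes were. With no minimum, 22 of all 37 genes were lower at each genotype, where 11.2% of genes were lower in HuR-FKO and 12.2% in Ctrl. No library is shared between the genotypes, and 22 genes were called lower in both, which is 84.6% of the 26 in HuR-FKO and 95.7% of the 23 in Ctrl. No such share was taken over all genes, so these percentages are not set against a background.

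Top2a fell by 1.57 ± 0.28 on the log2 scale in HuR-FKO (SE, adjusted p = 0.00359, 3 libraries a group) and by 1.35 ± 0.22 in Ctrl (adjusted p = 0.00203). Birc5 fell by 1.54 ± 0.29 in HuR-FKO (adjusted p = 0.00446) and by 1.29 ± 0.16 in Ctrl (adjusted p = 0.000457). Tk1 fell by 1.25 ± 0.37 in HuR-FKO (adjusted p = 0.0314) and by 1.31 ± 0.16 in Ctrl (adjusted p = 0.00051). In Ctrl these were the 3 largest falls of the 37 genes, and in HuR-FKO Rrm2 stood among them with a fall of 1.32 ± 0.28. Mki67 fell by 1.21 ± 0.22 in HuR-FKO and by 1.05 ± 0.17 in Ctrl, and Mcm5 by 1.16 ± 0.22 in HuR-FKO and 0.69 ± 0.18 in Ctrl. Pcna fell by 0.61 ± 0.15 in HuR-FKO and by 0.47 ± 0.13 in Ctrl. All 5 replication genes and all but Tyms of the 4 nucleotide synthesis genes passed the test in both genotypes. Aurkb, Ccnb1, Cdk1 and Ube2c passed in HuR-FKO only and Aurka in Ctrl only, without a difference between the genotypes that passed its own test. Cdk1, for instance, differed by -0.87 ± 0.20 in HuR-FKO and by -0.28 ± 0.27 in Ctrl, and the difference of the differences was -0.59 ± 0.35 and did not pass. Ccnb1 differed by -0.87 ± 0.26 in HuR-FKO and by -0.48 ± 0.23 in Ctrl. Tyms passed in neither, at -0.80 ± 0.31 in HuR-FKO and -0.15 ± 0.25 in Ctrl. Cks1b went the other way: it was higher in eWAT by 0.43 ± 0.12 in HuR-FKO (adjusted p = 0.0244), and in Ctrl its difference of 0.40 ± 0.16 did not pass (adjusted p = 0.104). The replicate numbers may pair the Ctrl libraries of the white depots, though the labels do not say so, and the calls above used no pairing. With the number as a block the Ctrl calls were 19 lower and 1 higher. Aurka, Cdc20, Cenpa, Kif23 and Nusap1 were lost, Aurkb was gained and Cks1b passed as higher (adjusted p = 0.0406). Single libraries moved the counts of genes called in either direction, which were 27 in HuR-FKO and 23 in Ctrl. In HuR-FKO the count was 15 without iWAT HuR-FKO replicate 2 and 35 without replicate 3, with the fall in Top2a between 1.35 and 1.94 over all such omissions. Without iWAT Ctrl replicate 2 the Ctrl count was 11, without eWAT Ctrl replicate 3 it was 13, without eWAT Ctrl replicate 2 it was 14 and without iWAT Ctrl replicate 1 it was 15.

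**Figure D3:**
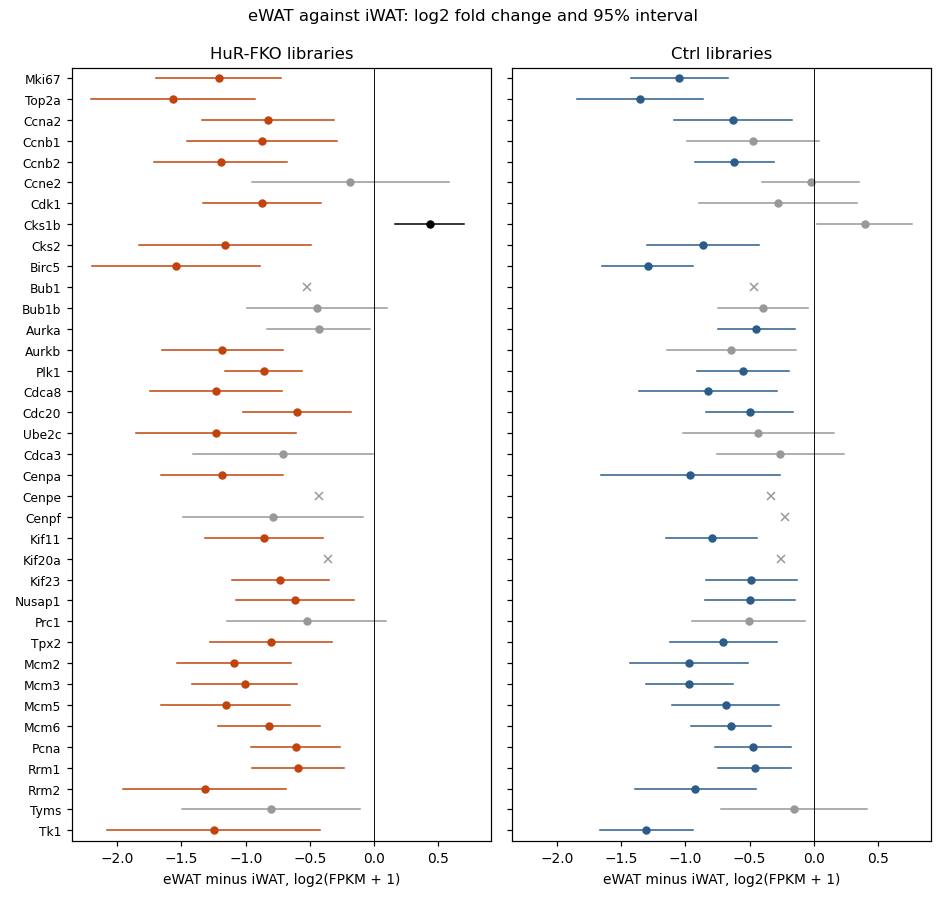
Log2 difference of FPKM + 1 between eWAT and iWAT (points) with 95% intervals (lines) for the 37 genes in HuR-FKO libraries (left) and Ctrl libraries (right). Coloured points passed as lower, black as higher, grey did not pass, and crosses mark genes under the filter. All points but Cks1b lie left of 0.

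Markers of several cell types differed between the white depots in the same libraries. The counts of markers called stand against 14.9% of all genes lower and 14.9% higher in eWAT HuR-FKO, and 15.9% lower and 12.2% higher in eWAT Ctrl. Of 12 B cell markers, 12 were lower in eWAT at each genotype, and of 10 T cell markers, 10 were. The B cell list summed to 10.3 to 15.1 FPKM in eWAT HuR-FKO and 245 to 340 FPKM in iWAT HuR-FKO, and to 13.9 to 16.7 FPKM in eWAT Ctrl and 130 to 433 FPKM in iWAT Ctrl. In BAT it summed to 3.72 to 11.1 FPKM in HuR-FKO and 2.51 to 13.6 FPKM in Ctrl, where Pax5 was at 0 in 3 of the 4 libraries. The T cell list summed to 22.2 to 29.1 FPKM over the eWAT libraries and 190 to 335 FPKM over the iWAT libraries. Not every B lineage list was so far apart. Plasma cell markers summed to 114 to 124 FPKM in eWAT HuR-FKO and 128 to 155 FPKM in iWAT HuR-FKO. In Ctrl their sums overlapped, at 125 to 154 FPKM in eWAT and 125 to 200 FPKM in iWAT. A list of germinal centre B cell markers is not given here. Cr2, a marker of mature B cells and follicular dendritic cells, was at 0.0631 FPKM or less in all eWAT libraries and at 1.52 to 8.71 FPKM in iWAT. The NK and cytotoxic list was lower in eWAT for 7 of 8 genes at each genotype. The progenitor list was lower for 5 of 11 genes and higher for 1 in HuR-FKO and lower for 7 of 11 in Ctrl, the mesothelial list was higher in eWAT for all 7 genes, and the endothelial list was higher for 7 of 10, at each genotype. Mast cell markers (6 of 6 tested) and Schwann cell markers (7 of 7) were lower in eWAT at each genotype, with sums of 27.7 to 48.0 FPKM in eWAT and 98.1 to 179 FPKM in iWAT for mast cells, and 11.8 to 14.0 FPKM in eWAT and 98.4 to 292 FPKM in iWAT for Schwann cells. Macrophage markers summed to 594 to 773 FPKM in eWAT and 901 to 1351 FPKM in iWAT, with 2 of 10 lower and 1 higher in HuR-FKO and 4 lower and 1 higher in Ctrl. The macrophage counts in HuR-FKO were near the shares of all genes. Of the neutrophil markers, 4 of 6 tested were lower in HuR-FKO and 5 of 7 in Ctrl. Within iWAT, the T cell sum put the libraries of each genotype in the same order as the sum of the 37 genes. The B cell sum did so in HuR-FKO and not in Ctrl, where replicate 1 had the lowest B cell sum (130 FPKM) and the middle gene sum (172 FPKM). Other lists went either way. In HuR-FKO the NK and neutrophil sums kept the order of the gene sum, and the progenitor, mast cell, Schwann cell and endothelial sums reversed it. In Ctrl the mast cell and plasma cell sums kept that order, and the endothelial sum reversed it. The part of these cells in the depot difference was not tested, and in whole tissue more dividing cells cannot be told apart from more RNA per dividing cell.

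**Figure D4:**
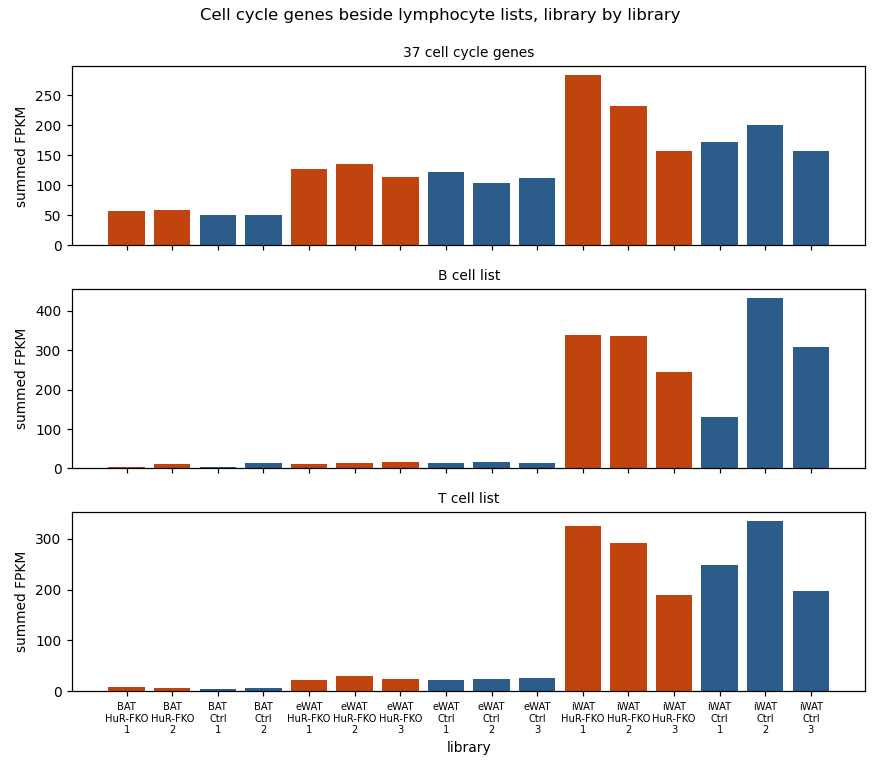
Summed FPKM of the 37 genes (top), of 12 B cell markers (middle) and of 10 T cell markers (bottom) in each of the 16 libraries, HuR-FKO in orange and Ctrl in blue. All 3 sums are highest in iWAT, and the gene sum stays between 104 and 135 FPKM in eWAT, where the B cell sum is at most 16.7 FPKM.

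Other cell cycle genes were taken from 5 lists of known roles, and their counts stand against 14.9% of all genes lower and 14.9% higher in eWAT HuR-FKO, and 15.9% lower and 12.2% higher in eWAT Ctrl. Of 48 replication genes, 14 of 44 tested were lower in eWAT HuR-FKO and 1 was higher, and 13 of 45 were lower in Ctrl and 2 higher, with list medians of -0.38 in HuR-FKO and -0.31 in Ctrl on the log2 scale. Hells, a chromatin remodeller of S phase, fell by 1.01 ± 0.15 in HuR-FKO and by 0.84 ± 0.16 in Ctrl, and Mcm4 by 0.65 ± 0.15 in HuR-FKO and 0.67 ± 0.15 in Ctrl. Of 72 mitotic genes, 24 of 46 tested were lower in eWAT HuR-FKO and 20 of 36 in Ctrl, with 1 higher at each genotype and medians of -0.59 in HuR-FKO and -0.58 in Ctrl. Hmgb2, a chromatin protein, Lmnb1, a nuclear lamin, and Stmn1, which destabilises microtubules, fell by 1.39 ± 0.18, 1.29 ± 0.22 and 1.19 ± 0.20 in HuR-FKO, in that order, and by 1.12 ± 0.19, 0.99 ± 0.15 and 0.94 ± 0.13 in Ctrl. The 24 regulators of G1 gave 4 lower and 2 higher of 21 tested in HuR-FKO and 3 lower and 2 higher in Ctrl, near the shares of all genes. Among them the activator E2f2 fell by 1.18 ± 0.20 in HuR-FKO and 0.93 ± 0.23 in Ctrl, and Tfdp2, a partner of E2F proteins, was higher by 0.52 ± 0.12 in HuR-FKO and 0.60 ± 0.15 in Ctrl. Of the 8 genes of the DREAM and MuvB complexes, which act at CHR promoters, 2 of 7 tested were higher and 1 lower in eWAT HuR-FKO, and 1 was higher in Ctrl. Lin52 was higher in eWAT at both genotypes (0.57 ± 0.14 in HuR-FKO and 0.45 ± 0.12 in Ctrl), and Foxm1 was lower in HuR-FKO (-0.76 ± 0.22). Of the 24 inhibitors of the cycle, 5 of 23 tested were lower and 2 higher in eWAT HuR-FKO, and 3 were lower and 4 higher in Ctrl, also near the shares of all genes. Gadd45g rose by 1.07 ± 0.11 in eWAT HuR-FKO and 1.15 ± 0.16 in eWAT Ctrl. Gadd45b fell by 1.46 ± 0.27 in HuR-FKO and 1.58 ± 0.26 in Ctrl, and both encode stress-induced proteins. Cdkn2c, the inhibitor p18 of CDK4 and CDK6, rose by 0.87 ± 0.13 in HuR-FKO and 0.78 ± 0.20 in Ctrl.

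Most of the 37 genes were lower in BAT than in iWAT, on a scale that itself shifted. The 3 depot comparisons of a genotype share libraries, and their values are given side by side. The median of all genes tested, BAT minus iWAT, was -0.70 in HuR-FKO and -0.69 in Ctrl, and BAT minus eWAT was -0.72 in HuR-FKO and -0.66 in Ctrl. Mitochondrial genes took 37.7% to 44.5% of the FPKM of protein-coding genes in BAT, 12.1% to 16.8% in eWAT and 19.7% to 27.3% in iWAT. FPKM over all rows summed to 719411 to 796184 in BAT, 3460326 to 6831527 in eWAT and 4384803 to 12928419 in iWAT. Protein-coding genes alone summed to 631354 to 676812 in BAT and 578835 to 651068 in white fat. The part of these differences in the shift was not tested. Against iWAT, 31 of the 34 genes tested were lower in BAT HuR-FKO, where 68.3% of all genes were lower, and 30 of 33 in BAT Ctrl, where 65.6% were. None of the 37 was higher at either genotype, where 8.62% and 8.89% of all genes were. Of the genes tested, 23 in HuR-FKO and 24 in Ctrl averaged over 1 FPKM in iWAT and not in BAT. Some of them, such as Ccna2, also averaged over 1 FPKM in eWAT. Of the genes above 1 FPKM in both depots, 9 of 11 were lower in HuR-FKO and 7 of 9 in Ctrl, where 66.3% and 62.9% of all such genes were. With no minimum, 32 of the 37 were lower at each genotype, where 53.4% of genes were lower in HuR-FKO and 52.5% in Ctrl. The median over the 37 genes was -1.41 in HuR-FKO and -1.18 in Ctrl. When the libraries were rescaled by median ratios, so that the median gene no longer differed, 26 were lower and none higher in HuR-FKO, where 29.2% of genes were lower and 28.8% higher. In Ctrl 24 were then lower and 1, Rrm1, was higher, where 29.6% were lower and 27.6% higher. The medians were then -1.08 in HuR-FKO and -0.90 in Ctrl. Mcm6 was lower in BAT by 2.20 ± 0.20 in HuR-FKO and by 2.27 ± 0.15 in Ctrl before rescaling, Top2a by 2.19 ± 0.32 in HuR-FKO and 2.16 ± 0.24 in Ctrl, and Cks1b by 2.71 ± 0.13 in HuR-FKO and 1.94 ± 0.18 in Ctrl. Aurka, Ccnb1, Cks2 and Pcna lost their calls on rescaling at both genotypes.

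Against eWAT the BAT counts were close to or below those of all genes. In HuR-FKO 14 of 34 were lower, where 68.6% of all genes were, and 1, Cenpa, was higher by 0.76 ± 0.23 (adjusted p = 0.0147), where 9.11% were. In Ctrl 22 of 33 were lower and none higher, where 64.9% of all genes were lower and 9.35% higher, and the median of the 37 genes (-0.61) lay beside that of all genes (-0.66). After rescaling 3 were lower and 3 higher in HuR-FKO and 10 lower and 2 higher in Ctrl, where 28.1% and 27.5% of all genes were lower and 27.0% and 25.5% higher. Cks1b, Mcm6 and Cdc20 remained lower in BAT under both scalings and at both genotypes. Cks1b was lower by 3.15 ± 0.13 in HuR-FKO and 2.33 ± 0.18 in Ctrl, the largest BAT difference of the 37 genes at each genotype. The direction of Pcna depended on the scaling: it was lower in BAT by 0.50 ± 0.17 in HuR-FKO and 0.61 ± 0.15 in Ctrl, and after rescaling it was 0.35 in HuR-FKO and 0.17 in Ctrl above eWAT, neither past the threshold. With 2 BAT libraries a group, omitting BAT HuR-FKO replicate 1 left 6 calls in that genotype, against 15 with all libraries, and omitting replicate 2 left 10.

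Within a depot, the libraries labelled HuR-FKO and Ctrl were compared to ask whether loss of HuR in fat cells went with a change of these genes. None of the 37 genes passed in any depot by limma, and the count was 0 under each alternative run. In BAT, 0 of 12 tested passed, where 0.0% of 10944 genes passed in either direction, and at an unadjusted p under 0.05 there was 1 of the 37 genes, Top2a, among 316 genes higher (2.89%) and 739 lower. In eWAT, 0 of 24 passed, where 0.0406% of 12330 genes did in either direction, with 1 gene higher at an unadjusted p under 0.05, Cks1b, where 3.84% of all genes were. In iWAT, 0 of 34 passed, where 0.0394% of 12706 genes did, with 3 genes higher at an unadjusted p under 0.05, Cks1b, Plk1 and Ccnb2, where 3.7% of all genes were, and none lower, where 5.52% were. That count of 3 rested on single libraries: it was 16 without iWAT HuR-FKO replicate 3, 6 without iWAT Ctrl replicate 2, and 1 when any of the other 4 iWAT libraries was left out. The share of all genes at each omission is not given, so these counts are not set against a background. The count of 1 in eWAT was 1 or 2 and that in BAT 0 to 3 when each library was left out in turn, with 0 in BAT without HuR-FKO replicate 1 or Ctrl replicate 2, and 3 without Ctrl replicate 1. The median difference of the 37 genes, HuR-FKO minus Ctrl, was 0.08 in BAT, 0.01 in eWAT and 0.24 in iWAT, against -0.05, -0.01 and -0.04 over all genes tested. The difference was positive for 26 of the 37 genes in BAT, 21 in eWAT and 34 in iWAT. The share of all genes with a positive difference is not given, so these counts are not set against a background.

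**Figure D5:**
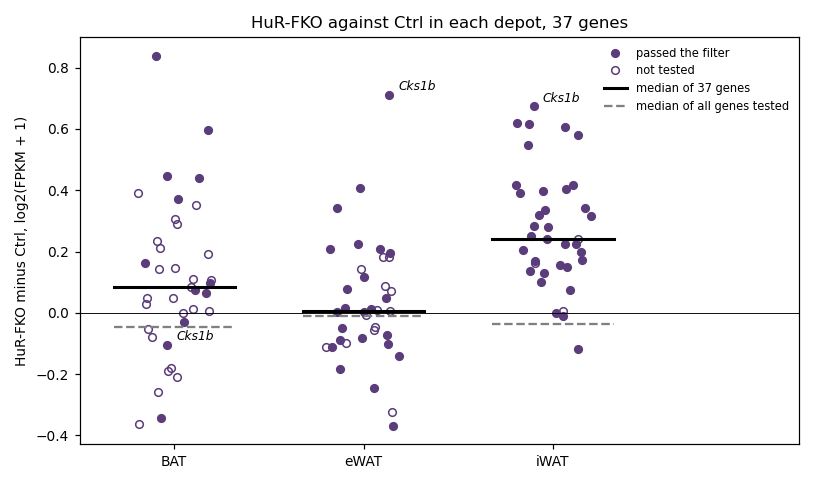
Difference in log2(FPKM + 1), HuR-FKO minus Ctrl, for each of the 37 genes (points, open where the gene was under the filter) in BAT, eWAT and iWAT. Black bars are the medians of the 37 genes (0.08, 0.01 and 0.24) and dashed bars those of all genes tested. Cks1b is the highest point in eWAT and in iWAT and lies below 0 in BAT.

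Cks1b (chr3:89415472-89418383 in GRCm38, minus strand) had the smallest p of the 37 genes in both white depots. In eWAT its mean was 1.66 times as high in HuR-FKO as in Ctrl, and the log2 difference was 0.71 ± 0.11 with a 95% interval of 0.46 to 0.96 (adjusted p = 0.144). In iWAT the ratio of means was 1.63 and the log2 difference 0.67 ± 0.15, with an interval of 0.33 to 1.02 (adjusted p = 0.283). All 3 HuR-FKO libraries lay above all 3 Ctrl libraries in each white depot, an order found in 6.67% of all genes tested in eWAT and 5.66% in iWAT. In BAT the difference was -0.11 ± 0.21 and the libraries overlapped. Such a tissue value cannot say which cells the transcript came from. The contrast of BAT with the mean of the white depots differed between the genotypes by -0.80 ± 0.21 (adjusted p = 0.453). None of the 37 genes passed in this test, where 0.0% of all genes did, or in that of eWAT against iWAT, where 0.00764% did and Ccnb2 had the smallest p at -0.57 ± 0.29. At an unadjusted p under 0.05 only Cks1b was called, in the contrast of BAT with white fat. The share of all genes at that threshold is not given, so this call is not set against a background. Of the neighbours of Cks1b, Flad1 overlapped between the genotypes in all depots, while Shc1 overlapped in eWAT and was lower in every HuR-FKO library in iWAT and BAT. Shc1 had 29.3, 31.0 and 34.5 FPKM in iWAT HuR-FKO, against 36.8, 37.8 and 35.5 FPKM in iWAT Ctrl, a log2 difference of -0.21 ± 0.10 (adjusted p = 0.574), and 18.4 and 19.3 FPKM in BAT HuR-FKO, against 19.6 and 20.5 FPKM in BAT Ctrl (-0.09 ± 0.13, adjusted p = 0.884). In eWAT Shc1 had 41.8, 36.1 and 38.6 FPKM in HuR-FKO, against 43.5, 38.7 and 41.0 FPKM in Ctrl, and Flad1 had 27.4, 26.5 and 27.2 FPKM in eWAT HuR-FKO, against 31.1, 24.0 and 22.3 FPKM in eWAT Ctrl. In the 5 lists of other cell cycle genes no gene passed between the genotypes in any depot.

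The other genes with small p had wider intervals. In eWAT, Top2a differed by 0.41 ± 0.19 (adjusted p = 0.662) and Bub1b by 0.34 ± 0.16 (adjusted p = 0.67), and Bub1b was the only other gene with every HuR-FKO library above every Ctrl library. In iWAT, Plk1 differed by 0.40 ± 0.16 (adjusted p = 0.507) without overlap, and Ccnb2 by 0.58 ± 0.24 (adjusted p = 0.531) with overlap. In BAT, Top2a differed by 0.60 ± 0.22 (adjusted p = 0.496), Cks2 by 0.37 ± 0.16 (adjusted p = 0.549) and Cenpa by 0.84 ± 0.41 (adjusted p = 0.596). The 2 BAT libraries of HuR-FKO lay above the 2 of Ctrl for 12 of all 37 genes and below for 3, and for 4 and 1 of the 12 genes tested, where 14.8% and 26.6% of all genes tested did so. Over the genes tested the outermost 95% bounds were -0.82 and 1.87 in BAT, -1.01 and 0.96 in eWAT and -0.74 and 1.45 in iWAT. They are bounds of single genes, without adjustment for the number of genes tested. Such a bound can belong to an interval that leaves out 0, as that of Cks1b did in eWAT.

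The higher mean in iWAT HuR-FKO rested on its libraries unequally. Of the 6 iWAT libraries, HuR-FKO replicate 1 was highest for 30 of the 37 genes and replicate 2 for 5, while HuR-FKO replicate 3 was lowest for 19, Ctrl replicate 3 for 11 and Ctrl replicate 1 for 6. Set against the mean of the other 5 iWAT libraries, HuR-FKO replicate 1 was above for 37 of 37 genes, with a median difference of 0.57 on the log2 scale, and HuR-FKO replicate 3 was below for 33 of 37, with a median of -0.41. Without HuR-FKO replicate 1 the median difference between the genotypes was 0.06, and without HuR-FKO replicate 3 it was 0.50. The B cell list summed to 340, 336 and 245 FPKM and the T cell list to 326, 292 and 190 FPKM in these 3 libraries, against 130, 433 and 307 FPKM for the B cell list and 248, 335 and 198 FPKM for the T cell list in iWAT Ctrl, and their part was not tested. In eWAT no library stood out: the highest value fell in each of the 6 libraries for 3 to 10 genes, and the median distance of a library from the others ran from -0.09 to 0.10. In BAT, HuR-FKO replicate 2 was highest for 19 of 37 genes, at a median distance of 0.15. These counts and distances by library were taken over the 37 genes only and are not set against a background. A shift of all genes in a library was thus not set apart from a shift of these genes.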

How the data were processed

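Fat tissue RNA was measured by RNA-seq in 16 libraries, each a pool of 3 animals. Per the study's methods, directional paired-end libraries were aligned to mm10 with TopHat2 2.0.11, and the authors computed the deposited FPKM values with Cufflinks 2.1.1. Whether the counting used strand is not given in the sources used here, so values of genes that overlap on opposite strands are uncertain: Ccna2 with Exosc9, Ccne2 with Ints8, Cdca8 with 9930104L06Rik, Cdc20 with Elovl1, Ube2c with Tnnc2, Kif20a with Cdc23, Nusap1 with Oip5, Prc1 with Rccd1, and Tk1 with Afmid and Gm20708.

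The table had 38396 rows and 1 emptied line. Depth was estimated at 9.30 to 17.7 M fragments (M, 10 to the power of 6), and only 47.8% to 77.0% of low values came out as whole fragments (within 0.05 on the log2 scale), so no count test was run. The groups came from GEO's labels. Protein-coding genes with a group mean of at least 1 FPKM were tested as log2(FPKM + 1) with limma 3.58.1 in R 4.3.3, with Benjamini-Hochberg adjustment over all genes tested and a threshold of 0.05. Depots were compared within a genotype (3 groups in a fit), genotypes within a depot, and differences of differences in a fit over both. The scripts were tested on simulated data. P-values measure the spread between these pools only.

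The 37 genes, the gene lists and the comparisons were chosen with earlier results of these data known. The rule was to give every library's value for Mki67, Top2a, Ccna2, Ccnb1, Cdk1, Mcm5, Pcna, Rrm2 and Tyms and for the genes that passed or had the 3 smallest p. Since nearly all genes passed between depots, 17 are given library by library and the others by median and range. From the lists of other cell cycle genes, those named are among the 6 with the smallest p that passed. Deviations of same-numbered libraries correlated at 0.240, 0.276 and 0.192 across genes between eWAT Ctrl and iWAT Ctrl. This was read as possible pairing only, since the labels do not say what a number marks. Libraries of different numbers could correlate more, as iWAT HuR-FKO replicate 1 and iWAT Ctrl replicate 2 did at 0.352. The other comparisons with 3 numbers had at least 1 correlation under 0.1. Alternatives were a pseudocount of 0.1, no minimum, all genes, median-ratio scaling, no variance trend, the replicate block, all libraries in 1 fit and leaving out each library. Promoters came from RefSeq (GRCm38.p6), and gene types from GENCODE vM21 (36464 of 38371 gene IDs found).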

Additional observations from a re-analysis of the deposited data

How the results depend on the processing

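Of 640 values recomputed under an alternative other than leaving out a library, 579 kept their direction and their side of the threshold. No gene of the 37 passed between the genotypes under any alternative. Over all genes, the calls between the genotypes in eWAT (5) became 2 with no minimum, 0 with the replicate block and 28 with all 16 libraries in 1 fit. Those in iWAT (5) became 3 with a pseudocount of 0.1, 0 with no minimum, 10 with all genes, 3 with median-ratio scaling, 0 with the block and 37 with all 16 libraries. Those in BAT (0) became 6 with all genes, 46 with the block and 71 with all 16 libraries. The difference of eWAT against iWAT between the genotypes (1 call) gave 0 with a pseudocount of 0.1, 3 with no minimum and 5 with all genes, and that of BAT against white fat (0 calls) gave 4, 11 and 9, and 10 with scaling. A pseudocount of 0.1 moved the median of the 37 genes to 0.23 between the genotypes in BAT. Between depots it gave -2.59 in HuR-FKO and -2.30 in Ctrl for BAT against iWAT, -1.06 and -1.35 for BAT against eWAT, and -1.26 and -0.86 for eWAT against iWAT. Scaling gave -1.08 and -0.90 for BAT against iWAT, and for BAT against eWAT -0.14 and -0.27, with 6 genes called in HuR-FKO (15 without it) and 12 in Ctrl (22). Scaling also reversed Pcna, BAT against eWAT, to 0.35 in HuR-FKO and 0.17 in Ctrl. Ccna2, eWAT against iWAT in Ctrl, lost its call with a pseudocount of 0.1 (-0.84), no minimum, all genes or scaling.

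With the replicate block, the median of BAT against eWAT in HuR-FKO was -0.67, and the calls of eWAT against iWAT were 28 in HuR-FKO, against 27 without it, and 20 in Ctrl, against 23. The genes of the 37 higher in iWAT HuR-FKO at an unadjusted p under 0.05 (3) were 8 with the block, 6 with scaling and 6 with all 16 libraries. The share of all genes under these settings is not given.

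Leaving out a library in turn gave 11 to 21 genes called for eWAT against iWAT in Ctrl (2405 to 4021 over all genes) and 15 to 35 in HuR-FKO (2377 to 4266). For BAT against eWAT it gave 6 to 21 in HuR-FKO, with medians of -0.62 to -0.44 there and -0.63 to -0.57 in Ctrl. Calls over all genes between the genotypes were 0 to 136 in BAT, with a median of the 37 genes of 0.043 to 0.15, 1 to 6 in eWAT and 0 to 5 in iWAT. The tests between depots of the genotype difference gave 0 to 2 calls for eWAT against iWAT, with a median of -0.37 to -0.035, and 0 to 22 for BAT against white fat, where Cenpa reversed to -0.026 without BAT Ctrl replicate 2 (range -0.026 to 1.09). The causes were not tested. With 2 or 3 pools a group and most BAT values under 1 FPKM, small differences were not detectable.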

Other observations

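Marker sums of other cell types also differed between the libraries, and those of muscle overlapped between the genotypes in iWAT. Mesothelial markers summed to 116 to 213 FPKM over the eWAT libraries and 1.76 to 3.49 FPKM over the iWAT libraries. Muscle markers summed to 895 to 917 FPKM in BAT libraries labelled HuR-FKO and 1550 to 2690 FPKM in BAT Ctrl, and to 21.9 to 446 FPKM in iWAT HuR-FKO and 263 to 1830 FPKM in iWAT Ctrl. Brown fat markers summed to 1019 to 2001 FPKM in iWAT HuR-FKO and 592 to 815 FPKM in iWAT Ctrl, and progenitor markers to 2043 to 2668 FPKM in iWAT HuR-FKO and 2863 to 3382 FPKM in iWAT Ctrl. None of the progenitor markers passed between the genotypes in iWAT, and 5 of 11 were lower at an unadjusted p under 0.05, where 5.52% of all genes were.

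Among other cell cycle genes, Rfc4, a subunit of the clamp loader that places PCNA on DNA, had the smallest p of the replication list between the genotypes in eWAT, at a log2 difference of 0.85 ± 0.15, HuR-FKO minus Ctrl (limma, adjusted p = 0.16). It was chosen after its value was seen, and it did not pass.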
